A study of Mus musculus with 4 samples.

Results

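The 39 genes described here act in the G2 phase and in mitosis, and they were found by symbol among 32285 genes, each as 1 row of the deposited count matrices. The list was given by name, with earlier results of these data known. Before mitosis the kinase Cdk1, paired with the A- and B-type cyclins, starts chromosome condensation and spindle assembly. The spindle checkpoint then holds cells until every kinetochore is attached, after which the anaphase-promoting complex with its activator Cdc20 destroys cyclin B and the midzone and cytokinesis proteins split the cell. Most of these transcripts are made late in the cycle, so in marrow they are known as marks of dividing progenitors and precursors, and stem cells at rest hold few of them.

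The material was Kit+ CD45.2+ mouse bone marrow, taken 10 weeks after transplantation, stained with barcoded antibodies and run on the 10x Genomics 3′ version 3.1 chemistry. There were 4 groups of 1 library each, with the labels control, deletion of Mll3, deletion of Mll4 and deletion of Mll3/4, and all carried the CD45.2 mark. Mll3 and Mll4, products of Kmt2c and Kmt2d, are related histone H3 lysine 4 methyltransferases that act at enhancers. Strain, sex, the deleting enzyme, the recipients and the number of animals are not given in the sources used here. With 1 library per group there is no spread between replicates and no test: differences are between libraries, and intervals are exact 95% Poisson or binomial ones that cover counting error only, since UMIs of 1 cell are not independent.

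The deposited matrices held 6622 to 10001 barcodes per library, and 5350 to 7146 cells per library were kept, with a median of 5142 UMIs per cell in the library labelled Mll4 deleted and 9965 to 16963.5 in the other 3. Between 42 and 60 barcodes of a library, at most 0.634%, also occurred in another. Over all kept cells Kmt2c stood at 47.9, 27.2, 59.2 and 34.8 CPM (counts scaled to the same total over all genes) in control and the libraries labelled Mll3, Mll4 and Mll3/4, and Kmt2d at 25.8, 21.6, 24.99 and 24.7 CPM. Over all kept cells, where the labels name Mll4, Kmt2d lay slightly below control with overlapping counting intervals. In the cells named B-cell progenitor-like below, Kmt2d was at 40.2 CPM (33.6 to 47.8) in control. It was at 25.9 (20.4 to 32.5), 16.8 (6.18 to 36.7) and 24.7 CPM (23.6 to 25.9) in the libraries labelled Mll3, Mll4 and Mll3/4. There Kmt2d was thus lower in the library labelled Mll3 as well. A 3′ count need not show a deleted upstream exon, so names such as Mll3-labelled are used for the libraries and every direction rests on the label. Xist stood at 0.519 CPM in the Mll4-labelled library against 989.9 CPM in control, so sex and the label cannot be told apart there.

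Members share sequence features that the list did not use. The table of RefSeq promoters on GRCm38.p6 (250 bases before to 50 after the start site) held 33 of the 39. TTTGAA, the letters of the cell cycle genes homology region, a promoter element bound by the DREAM and MuvB complexes, was present on either strand in 25 of 33 (75.8%) against 20.2% of 27025 genes. CCAAT, the letters bound by NF-Y, was present in 25 of 33 (75.8%) against 41.1%, and 21 (63.6%) held both against 7.97%. The related TTTAAA was present in 9 (27.3%) against 14.9%. To show how the letters lie, the promoters of 4 of the members always named below, all of which hold both, are shown 5′ to 3′ on the gene's own strand, with TTTGAA and CCAAT or their reverse complements TTCAAA and ATTGG in capitals, from RefSeq on GRCm38.p6.
Cdc20: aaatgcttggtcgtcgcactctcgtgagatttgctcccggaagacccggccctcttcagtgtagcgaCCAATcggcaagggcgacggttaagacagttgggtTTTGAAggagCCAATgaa
Cdk1: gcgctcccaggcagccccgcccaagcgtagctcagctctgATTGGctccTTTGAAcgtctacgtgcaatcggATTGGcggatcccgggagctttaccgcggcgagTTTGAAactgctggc
Mki67: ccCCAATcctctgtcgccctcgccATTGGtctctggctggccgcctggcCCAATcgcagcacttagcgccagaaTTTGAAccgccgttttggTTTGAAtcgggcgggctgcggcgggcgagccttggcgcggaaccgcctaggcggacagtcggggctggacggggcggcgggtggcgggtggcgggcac
Top2a: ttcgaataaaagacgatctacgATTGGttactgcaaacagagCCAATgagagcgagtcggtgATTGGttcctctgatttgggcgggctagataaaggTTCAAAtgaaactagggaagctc
The printed stretches are chr4:118437344-118437463 for Cdc20, chr10:69352913-69353032 for Cdk1, chr7:135716380-135716569 for Mki67 and chr11:99024190-99024309 for Top2a, all on the minus strand and upstream of the RefSeq start. In Cdc20 the TTTGAA begins 18 bases before the start site and the CCAAT copies 53 and 8 before it. The 39 genes lie on 17 chromosomes in GENCODE M21, with 6 on the most common one.

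Cells were grouped into classes named by marker genes, from a clustering that left these genes out, and UMIs were summed over the cells of a class. The summed level of the 39 genes was highest in B-cell progenitor-like and neutrophil-like cells and lowest in T, NK and innate lymphoid-like cells. In control it was 7397 CPM in B-cell progenitor-like cells, 7802 CPM in neutrophil-like, 4199 CPM in erythroid progenitor-like, 4195 CPM in megakaryocyte-like, 2693 CPM in basophil and mast cell-like, 2656 CPM in monocyte and macrophage progenitor-like, 2410 CPM in HSC/MPP-like (stem cells and multipotent progenitors) and 2235 CPM in granulocyte progenitor-like cells. The 50 control T, NK and innate lymphoid-like cells held 526 CPM (447 to 614), measured the same way. All 39 members had at least 20 counts in 1 of the libraries compared in each of the 8 classes with enough cells, so none was lost to the filter there. Over all kept cells, which mix the classes in different shares, 0 members were past 1.5-fold in the Mll3-labelled library against control (0.646% of all genes were higher and 2.36% lower). In the Mll4-labelled library 14 were higher and 0 lower (15.1% and 11.3%), and in the Mll3/4-labelled library 3 were higher and 0 lower (20.7% and 21.6%). Against the Mll3-labelled library, Mll3/4-labelled cells had 5 higher and 0 lower (23% and 20.4%), and against the Mll4-labelled one 2 higher and 13 lower (23.2% and 26%).

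**Figure D1:**
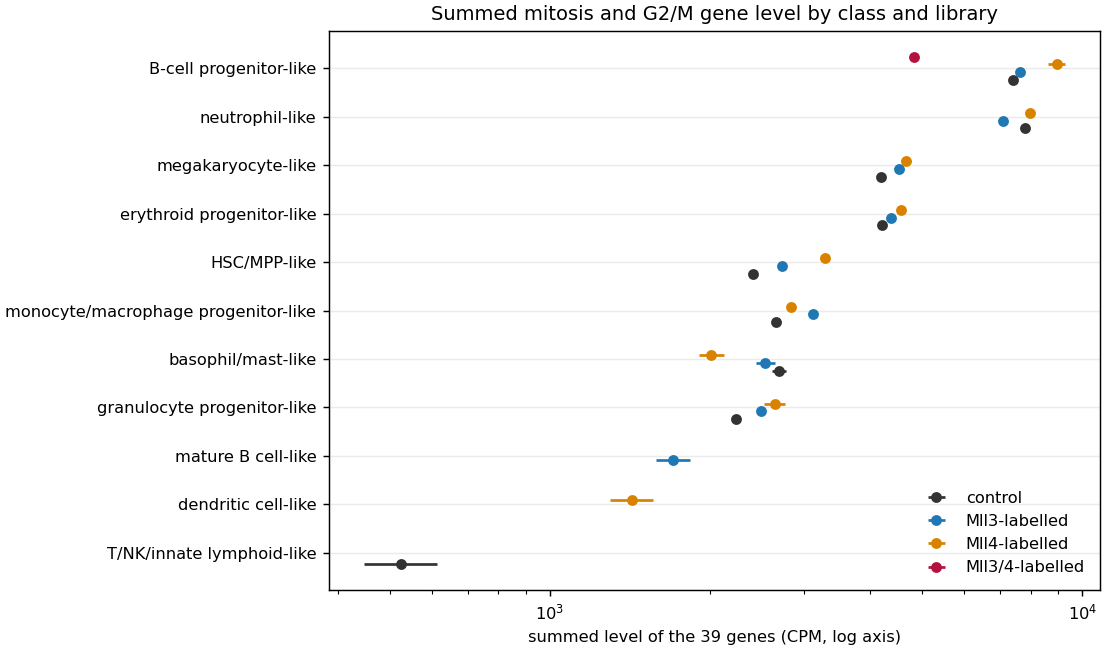
Summed level of the 39 genes in CPM on a log axis, by class and library; bars are 95% Poisson intervals, mostly narrower than the points, and classes with under 50 cells in a library are left out. In B-cell progenitor-like cells, the only class shown for all 4 libraries, the Mll3/4-labelled library lies at 4823 CPM against 7397 to 8949 CPM in the others.

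B-cell progenitor-like cells were the only class with at least 50 cells in all 4 libraries, with 471 control, 372 Mll3-labelled, 143 Mll4-labelled and 6830 Mll3/4-labelled cells. There the summed level was 7397 CPM (7303 to 7492), 7625 CPM (7525 to 7727), 8949 CPM (8641 to 9265) and 4823 CPM (4808 to 4839) in that order. The Mll3/4-labelled library was lowest. Of the 39 members, 37 had a lower level in it than in control and 2 a higher one, with a median log2 ratio of -0.65 (quartiles -0.82 and -0.45). All log2 ratios are of CPM plus 1, and a gene counts as past the fold at 1.5-fold. Past it, 21 members were lower and 0 higher, where 14.8% of all 13456 genes measured in that comparison were lower and 18.3% higher, with a median over all genes of 0.02. With trimmed-mean scaling, which moves all ratios of this comparison by 0.12, the median was -0.53, and with each cell weighted equally it was -0.29. The 2 sides differed in other ways: control cells of the class lay in clusters 0 and 14, led by Rag1 and Vpreb1 and by Bfsp2, Id3 and Blnk, while Mll3/4-labelled cells lay in clusters 20, 21 and 22, led by Gria2, Prlr and Rnase12 or Enpep. The median control cell had 4389 UMIs and the median Mll3/4-labelled cell 9936, and the 9 neutrophil markers summed to 2434 CPM in control (1 of 9 at 0) and 78.2 CPM there (0 of 9 at 0). The part of these differences in the result was not tested.

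The values below run in the order control, Mll3-labelled, Mll4-labelled and Mll3/4-labelled, as CPM in B-cell progenitor-like cells. Among the cyclins and their kinase, Ccna2, the A-type cyclin of S phase and G2, was at 202, 183, 247 and 81.2 CPM, the lowest log2 ratio of all members in the Mll3/4-labelled library at -1.31. Cdk1 was at 285, 309, 342 and 146 CPM, with a log2 ratio of -0.96 there. Ccnb1, the cyclin whose loss ends mitosis, was at 149, 183, 261 and 86.4 CPM. In all 4 genes of the group, which includes Ccnb2 (173, 211, 230.2 and 92.5 CPM), the Mll3/4-labelled library had the lowest level, past the fold against control. The group's median log2 ratio was -0.93.

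Among the checkpoint and mitotic exit genes, Cdc20 was at 143, 181, 264 and 87.9 CPM. Bub1, a checkpoint kinase of the kinetochore, was at 66.3, 54.3, 72.99 and 30.3 CPM, with a log2 ratio of -1.11, and Ttk, the kinase that starts the checkpoint, was at 46.2, 46.7, 56.1 and 22.7 CPM. These 3 were past the fold lower. Bub1b, which encodes the checkpoint protein BubR1, stood apart from them at 121, 115, 98.3 and 121 CPM, nearly level between control and Mll3/4-labelled cells. Of the kinases, Plk1, which drives mitotic entry and centrosome maturation, was at 78.9, 86.8, 81.4 and 55.2 CPM and was the 1 of 4 not past the fold. Aurka, the spindle pole kinase, was at 47.8, 63.98, 121 and 28.95 CPM and Aurkb, the kinase of the chromosomal passenger complex, at 134, 123, 213 and 67.8 CPM. Nek2, a centrosome kinase, was at 28.9, 32.2, 42.1 and 18.01 CPM. All 4 kinases were lowest in the Mll3/4-labelled library.

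Birc5 (survivin) and Cdca8 (borealin), partners of Aurkb in the passenger complex, were at 409, 459.6, 312 and 190.3 CPM and 255, 279.8, 202 and 145 CPM. Both were past the fold lower in the Mll3/4-labelled library, with log2 ratios of -1.10 and -0.81. Of 5 kinetochore and centromere genes, Ndc80, which encodes a microtubule-binding subunit of the outer kinetochore, was at 139, 112, 174 and 71.3 CPM and was the only one past the fold. Cenpf, a large coiled-coil protein of the outer kinetochore, was at 340.0, 405, 298 and 326 CPM, the third highest log2 ratio at -0.06. Nuf2, the partner of Ndc80, Cenpa, the centromeric histone H3, and the kinesin Cenpe had ratios of -0.56, -0.53 and -0.39.

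The 10 spindle genes had log2 ratios from -0.82 (Ckap2l) to -0.26 (Ckap2), 4 of them past the fold lower and 0 higher. Kif11, the motor that pushes spindle poles apart, was at 246, 199, 314 and 181 CPM, Tpx2, an activator of Aurka, at 192, 176, 202 and 141 CPM and Tacc3, a spindle microtubule crosslinker, at 89.9, 91.6, 185 and 55.9 CPM. Of the 6 midzone and cytokinesis genes, 2 were past the fold lower. Kif23, a kinesin of the central spindle, was at 137, 140.4, 140.4 and 81.7 CPM and Ect2, the exchange factor that activates RhoA at the furrow, at 66.6, 65.4, 95.4 and 38.4 CPM. Anln, the actin- and septin-binding anillin of the cleavage furrow, was at 39.3, 47.7, 39.3 and 48.5 CPM, the highest ratio of all members at 0.30. Of the chromosome group, Mki67, the surface layer of mitotic chromosomes, was at 892, 953, 1095 and 612 CPM and Top2a, the topoisomerase that untangles sister chromatids, at 1066, 1033, 1291 and 678 CPM. These were the most counted members, and their ratios of -0.54 and -0.65 lie near the median of the 39.

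**Figure D2:**
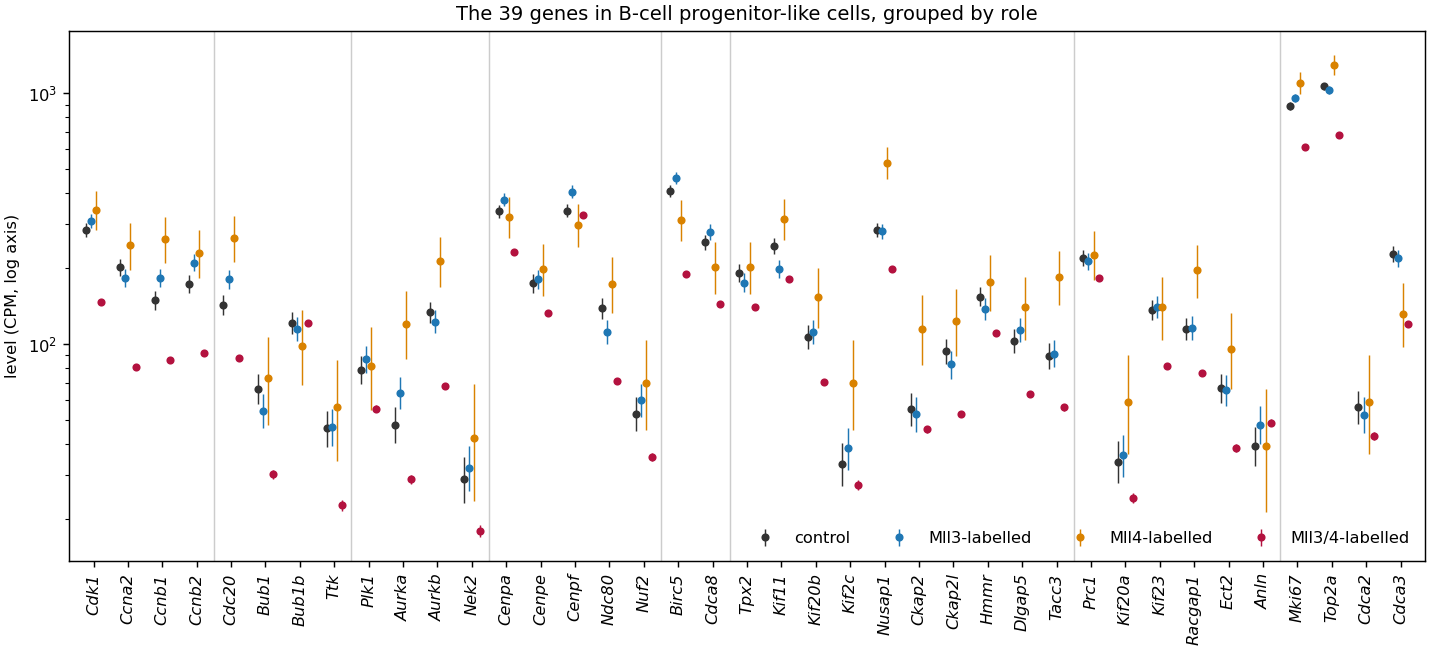
Level of each of the 39 genes in B-cell progenitor-like cells in CPM on a log axis, grouped by role between the vertical lines, with 95% Poisson intervals. The Mll3/4-labelled points lie lowest for most genes, and Bub1b (121 CPM), Cenpf (326 CPM) and Anln (48.5 CPM) do not follow.

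Against the other 2 libraries the Mll3/4-labelled one was lower too. Its median log2 ratio to the Mll3-labelled library was -0.66, with 26 members past the fold lower (12.4% of all genes were), and to the Mll4-labelled library it was -1.13, with 28 past the fold lower (27.3% of all genes were). No member was past the fold higher in either, where 23% and 26.7% of all genes were. The 3 comparisons share the Mll3/4-labelled library. By hashtag, the 2 tags that mark cells inside a library, its summed level was 4578 and 5168 CPM, against 7132 to 9710 CPM for the tags of the other 3 libraries. The Mll3-labelled library had a median of 0.04 to control over the members, or 0.37 with each cell weighted equally, and 0 of 39 past the fold either way (2.04% of all genes were higher and 8.37% lower). Its highest ratios were Aurka at 0.41, Cdc20 at 0.34 and Ccnb1 at 0.29, and its lowest Ndc80 at -0.31, Kif11 at -0.31 and Bub1 at -0.28. In the Mll4-labelled library, with 143 cells, the median was 0.29, with 10 members past the fold higher (22.6% of all genes were) and 1 lower (16.7%). Aurka at 1.32, Kif2c, a microtubule-depolymerising kinesin (33.3, 38.4, 70.2 and 27.5 CPM), at 1.05 and Ckap2, a spindle microtubule protein (55.00, 52.6, 115 and 45.7 CPM), at 1.05 were highest there. Cdca3, a trigger of mitotic entry (229, 219.6, 132 and 119.7 CPM), at -0.79, Birc5 at -0.39 and Cdca8 at -0.33 were lowest. With trimmed-mean scaling, which shifts that library by 0.25, the median was 0.05. The 9 neutrophil markers summed to 6327 CPM in these cells (2 of 9 at 0), and their part in the result was not tested.

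The level over a class joins how many cells hold these transcripts with how much each holds. Each cell was therefore thinned to 2000 UMIs, and cells with at least 5 UMIs of the 39 genes were counted. In B-cell progenitor-like cells they were 164 of 441 in control, or 37.2% (32.7 to 41.9), and 178 of 353 in the Mll3-labelled library, or 50.4% (45.1 to 55.8). In the Mll3/4-labelled library they were 1787 of 6747, or 26.5% (25.4 to 27.6). The Mll4-labelled value, 89.2% (79.8 to 95.2), rests on 74 of 143 cells, since 69 had under 2000 UMIs. Without thinning the shares were 42.3%, 59.4%, 53.8% and 52.2% in the same order, at median depths of 4389, 6454, 2276 and 9936 UMIs. Of the control T, NK and innate lymphoid-like cells, with a median of 4898 UMIs, 0 of 50 reached 5 UMIs of these genes, which allows a share of up to 6% by a floor of 3 cells and 7.11% by the exact interval. Among cells past 5 UMIs the median was 22 UMIs of the 39 genes for control, 20.5 for Mll3-labelled and 25 for Mll3/4-labelled cells. The lower class level in the Mll3/4-labelled library thus went with a smaller share of cells past 5 UMIs and a median per such cell that was not lower. All libraries were sorted for Kit, and the median CD117 (Kit protein) count of B-cell progenitor-like cells past 5 UMIs was 56.5 for control and 354 for Mll3/4-labelled ones, and the part of this difference in the shares was not tested.

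**Figure D3:**
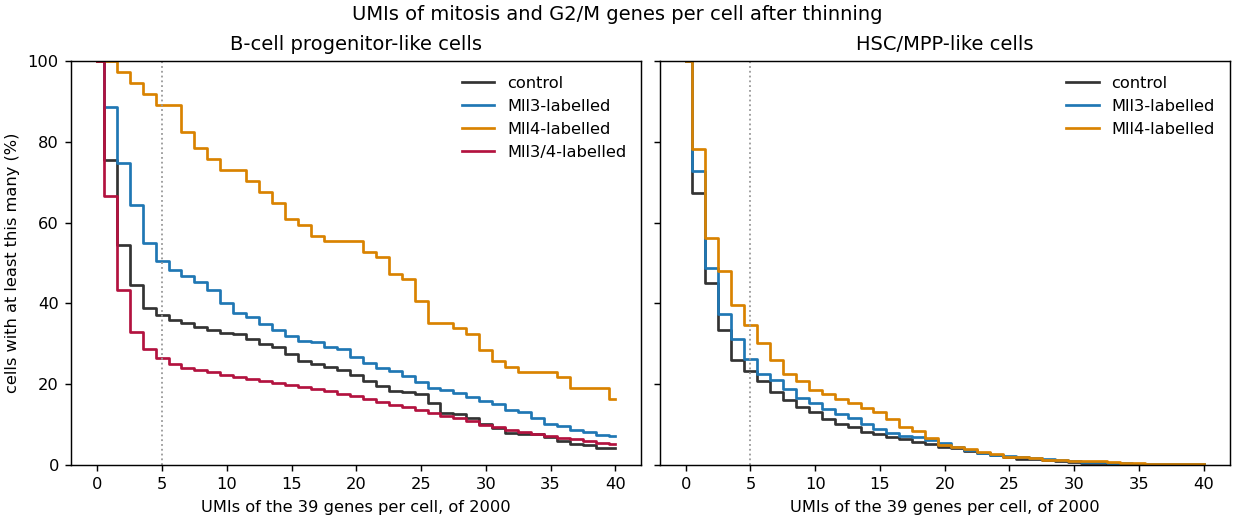
Percent of cells holding at least the given number of UMIs of the 39 genes after each cell was thinned to 2000 UMIs, in B-cell progenitor-like and HSC/MPP-like cells; the dotted line marks 5 UMIs. In B-cell progenitor-like cells the Mll3/4-labelled curve lies below control at 5 UMIs (26.5% against 37.2%) and at 20 UMIs (16.9% against 22.2%).

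The shares can also be given by cluster, which rests on the level of the same genes and is no separate support. Clusters 14 and 22, with a high level of the 39 genes, held 179 of 471 control cells (38.0%, 33.6 to 42.6), 192 of 372 Mll3-labelled (51.6%), 89 of 143 Mll4-labelled (62.2%) and 1587 of 6830 Mll3/4-labelled cells (23.2%, 22.2 to 24.3). They were put together for their level of these genes, so that level is a description. In the usual order of libraries it was 10634, 9618, 11132 and 13521 CPM, while the remaining clusters of the class (0, 20 and 21) had 603, 975, 634 and 628 CPM. Control cells of the high group were almost all of cluster 14 and Mll3/4-labelled ones of cluster 22. Within it, 33 of 39 members were higher in the Mll3/4-labelled library than in control, with a median log2 ratio of 0.35, 7 past the fold higher (22.8% of all genes were) and 0 lower (10.8%). Anln was highest in ratio there, at 56.1, 60.7, 49.6 and 139 CPM in the usual order, or 1.30. Cenpf was at 494, 512, 365 and 959 CPM, or 0.96. At the other end Ccna2 was at 294, 233, 312 and 243 CPM, or -0.27, and Bub1 at 95.1, 67.9, 92.1 and 89.4 CPM, or -0.09. In the same clusters the Mll3-labelled library had 0 members past the fold (3.13% of all genes were higher and 6.04% lower), with a median of -0.16. In the Mll4-labelled library 8 were past the fold higher and 1 lower (24% and 15.5% of all genes), with a median of 0.09. Since these clusters were chosen by the level of the same genes and hold almost only cells of one side or the other, no direction is read from them.

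**Figure D4:**
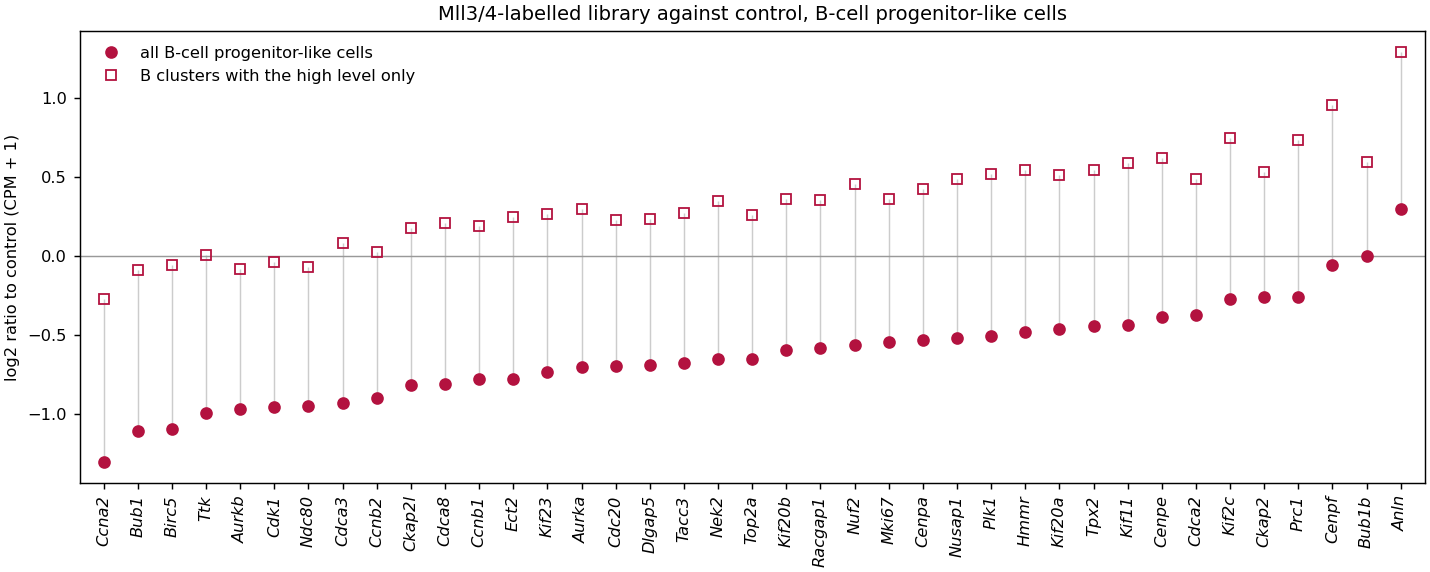
Log2 ratio of the Mll3/4-labelled library to control for each of the 39 genes, ordered by the ratio over all B-cell progenitor-like cells (filled circles); open squares give the ratio in the clusters with a high level of these genes. Circles run from -1.31 (Ccna2) to 0.30 (Anln) and squares from -0.27 (Ccna2) to 1.30 (Anln).

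The 39 genes did not move in 1 proportion. Ccna2 made up 2.74% of the UMIs of the 39 genes in control B-cell progenitor-like cells, 2.40% in the Mll3-labelled, 2.76% in the Mll4-labelled and 1.68% in the Mll3/4-labelled library. Cenpf made up 4.60%, 5.32%, 3.32% and 6.77%, and Anln 0.531%, 0.626%, 0.439% and 1.01%. Bub1b made up 1.64%, 1.51%, 1.10% and 2.51%. Top2a held 14.4%, 13.5%, 14.4% and 14.1%, and Mki67 12.1%, 12.5%, 12.2% and 12.7%, close to constant. The meaning of the hashtags is not given in the labels. For Bub1b they gave 1.54% and 1.71% in control and 2.48% and 2.51% in the Mll3/4-labelled library, for Anln 0.562% and 0.506% against 0.946% and 1.06%, and for Ccna2 2.83% and 2.66% against 1.61% and 1.76%. For these 3 genes both values of the Mll3/4-labelled library lay outside the range of the other 3 libraries' hashtags.

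Bub1b also stood apart by the cells that held it. Leaving each gene out of the count of the others, 65.5% of the 1347 Bub1b UMIs left after thinning in the Mll3/4-labelled library lay in cells with at least 5 UMIs of the other members, against 79.7% of 64 in control and 90.5% of 74 in the Mll3-labelled library. For Hmmr, which encodes a spindle- and hyaluronan-binding protein, the Mll3/4-labelled value was 98.0% of 1117 UMIs, for Nuf2 97.5% of 359 and for Cenpf 95.9% of 3623. In the low clusters Bub1b was at 18.5, 15, 0 and 55.3 CPM, with 2829 UMIs in the Mll3/4-labelled library and 19 in control. Birc5 was at 36.04, 61.5, 0 and 10.8 CPM in the same clusters, opposite in direction in the last library, and both genes had 0 of 74080 UMIs in the Mll4-labelled one, with an upper 95% bound of 49.8 CPM. Bub1b was not alone in being higher there. Of 39 members 5 were past the fold higher than control in the Mll3/4-labelled library and 13 lower, where 2956 and 3113 of 12920 genes were. Ckap2 had a log2 ratio of 1.70 on 3 control counts, Bub1b 1.53, Cdca2 0.82 on 5 control counts, Mki67 0.77 and Top2a 0.72.

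Readouts that took no part in choosing the members differed with them within a library. In B-cell progenitor-like cells past 5 UMIs the median cell had 10522.5 UMIs against 3474 in the remaining cells of control, 10057.5 against 3802 in the Mll3-labelled library and 13864 against 9023 in the Mll3/4-labelled library. CD127, the interleukin-7 receptor, had a median antibody count of 49.5 against 23 in control, 52 against 31 in the Mll3-labelled library and 60 against 41.5 in the Mll3/4-labelled library. CD117 had 56.5 against 56, 58.5 against 58, and 354 against 234 in the same order. The medians of both were higher in the cells past 5 UMIs of all 3 libraries, with CD117 nearly level in the first 2. Total antibody counts were also higher in those cells, at 700.0 against 523 in the Mll3/4-labelled library, where CD117 was 55.1% against 49.6% of them. In control CD117 was 3.78% against 4.17% of total antibody counts, and in the Mll3-labelled library 4.64% against 4.59%. CD127 was 3.25% against 1.69% in control, 4.10% against 2.35% in the Mll3-labelled and 8.09% against 7.37% in the Mll3/4-labelled library.

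The other genes of the pathway gave a similar picture over the class. Of 67 further mitosis genes, 40 were past the fold lower and 1 higher in the Mll3/4-labelled library, with a median of -0.68. The lowest were Cdc25b, a phosphatase that activates Cdk1, at 138, 123, 121 and 50.9 CPM, and Ska1, a kinetochore-microtubule coupler, at 49.97, 57.7, 81.4 and 21.2 CPM. The highest were Pttg1, the securin that restrains separase, at 35.8, 193, 177 and 94.8 CPM, and Psrc1, a spindle protein, at 22.0, 22.8, 16.8 and 27.1 CPM. Pttg1 was also lower in control than in the Mll3- and Mll4-labelled libraries in every other class compared. In neutrophil-like cells it was at 6.60, 148.5 and 137.8 CPM in that order. Of 30 S phase genes, 16 were past the fold lower and 3 higher, with a median of -0.65. Gins2, of the replicative helicase, was at 87.7, 89.9, 67.4 and 29.5 CPM and Uhrf1, which guides maintenance methylation, at 162, 195, 278 and 55.2 CPM, the lowest. Chaf1b, of chromatin assembly factor 1, was at 54.4, 59.5, 98.2 and 89.9 CPM and Ccne1, cyclin E1, at 27.3, 32.2, 70.2 and 44.8 CPM, the highest. Within the high clusters the S phase median was -0.65 and that of the further mitosis genes was 0.19. Those clusters were chosen by the level of the 39 genes, and control and Mll3/4-labelled cells lay in different ones. No direction is read from these medians either.

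Members with TTTGAA in the promoter had a median log2 ratio of -0.59 (25 genes) in the Mll3/4-labelled B-cell progenitor-like cells against control, and those without it -0.67 (8 genes). The ratios ran from -0.99 to 0.30 and from -1.11 to -0.39, so the ranges overlapped.

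HSC/MPP-like cells were compared in the 3 libraries that held enough of them, with 1571 control, 1097 Mll3-labelled and 570 Mll4-labelled cells. The summed level was 2410 CPM (2391 to 2430), 2725 CPM (2700 to 2750) and 3282 CPM (3221 to 3344), highest in the Mll4-labelled library. By hashtag it was 2559.7 and 2233 CPM for control, 2912 and 2489.8 CPM for Mll3-labelled and 3487 and 2890.4 CPM for Mll4-labelled cells, so neighbouring libraries overlapped. In the Mll3-labelled library 34 of 39 members were higher and 5 lower, by little: the median log2 ratio was 0.13, and 0 were past the fold (1.53% of all genes were higher and 2.62% lower). In the Mll4-labelled library 37 were higher and 2 lower, the median was 0.46 (quartiles 0.23 and 0.78), and 16 were past the fold higher and 0 lower, where 17.6% of all genes were higher and 8.26% lower. The median of all genes was 0.17 there. With trimmed-mean scaling, which shifts that library by 0.25, the median of the members was 0.22.

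In the order control, Mll3-labelled and Mll4-labelled, Tacc3 was at 31.2, 35.4 and 69.9 CPM in these cells, Kif20a, a kinesin of the midzone, at 14.8, 16.2 and 32.4 CPM and Aurkb at 42.9, 51.4 and 89.2 CPM. These had the highest Mll4-labelled log2 ratios, 1.14, 1.08 and 1.04. Cenpa was at 98.9, 101 and 87.4 CPM, Birc5 at 115, 137 and 111 CPM and Cdca3 at 54.7, 62.6 and 57.7 CPM, the lowest with -0.18, -0.05 and 0.08. Of the Mll3-labelled ratios, Nusap1, a microtubule bundler (71.5, 94.8 and 127 CPM), was highest at 0.40, then Cenpf (101, 128 and 112 CPM) and Mki67 (260.0, 328 and 351 CPM), each at 0.34. Nek2 (10.8, 8.34 and 13.97 CPM) was lowest at -0.34, then Hmmr (57.6, 50.1 and 61.5 CPM) at -0.20 and Cdca2, which recruits a phosphatase to chromatin (26.5, 24.6 and 38.65 CPM), at -0.11. Top2a was at 369, 413 and 508 CPM, Cdk1 at 103, 108 and 122 CPM and Ccnb1 at 34.5, 34.5 and 60.7 CPM. All 3 were highest in the Mll4-labelled library. Cdc20 at 49.97, 49.9 and 93.1 CPM, Aurka at 14.5, 17.5 and 30.6 CPM and Plk1 at 19.7, 21.5 and 25.9 CPM were also highest there. By role, the cyclins and their kinase had a Mll4-labelled median of 0.66 (2 of 4 past the fold), the mitotic kinases 0.70 (2 of 4), the midzone genes 0.67 (4 of 6), the spindle genes 0.66 (6 of 10), the checkpoint genes 0.63 (2 of 4), the chromosome genes 0.45 (0 of 4), the kinetochore genes 0.21 (0 of 5) and the passenger partners 0.03 (0 of 2).

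The class held 2 clusters, and the difference was larger in the one with more of the stem cell markers. Cluster 3, led by Ly6a (Sca-1) and Procr (CD201), had 697, 479 and 240 cells and a summed level of 668 CPM (650 to 686) in control, 735 CPM (712 to 758) in the Mll3-labelled and 1825 CPM (1746 to 1906) in the Mll4-labelled library. Cluster 4, led by Ccl9 and Cd34, had 874, 618 and 330 cells and 3263, 3655 and 3996 CPM. In cluster 3, 37 of the 38 members that reached 20 counts on either side were past the fold higher in the Mll4-labelled library, with a median of 1.47, where 20.2% of all genes were past the fold higher and trimmed-mean scaling shifts the library by 0.22. Nek2, with 13 and 8 counts, was under the filter. In cluster 4 the median was 0.35, with 12 past the fold higher (19.6% of all genes were). In the Mll3-labelled library the medians were 0.07 in cluster 3 and 0.10 in cluster 4, with 1 and 0 past the fold higher (2.23% and 1.49% of all genes were).

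Mki67 was at 58.8, 85.7 and 197 CPM in cluster 3, Top2a at 105, 109.9 and 251 CPM and Cdk1 at 32.6, 34.4 and 74.1 CPM. Nusap1 was at 12.1, 15.9 and 66.9 CPM, the highest Mll4-labelled ratio at 2.37, then Kif2c at 2.498, 1.83 and 14.5 CPM (2.14, on 20 and 16 counts) and Aurkb at 8.87, 10.6 and 40.7 CPM (2.08). Cenpa was at 41.5, 37.2 and 59.7 CPM, the lowest at 0.51, and the only one not past the fold. Other values differed as well, and not in cluster 3 alone. The median cell of cluster 3 had 11177 UMIs in control and 4348.5 in the Mll4-labelled library, and the 9 neutrophil markers summed to 1508, 1285 and 3693 CPM, with 0, 1 and 1 of them at 0. The stem cell markers of the class summed to 1218, 1229 and 1283 CPM in cluster 3. In cluster 4, where the Mll4-labelled median ratio was 0.35, the median cell had 18256.5 UMIs in control and 6748 in the Mll4-labelled library. The 9 neutrophil markers there summed to 1031, 833 and 3011 CPM in control, Mll3-labelled and Mll4-labelled cells. Neutrophil-like cells held 7988 CPM of the 39 genes in the Mll4-labelled library. In cluster 0 of the same library, a B-cell progenitor-like cluster with a low level, the 39 genes summed to 659 CPM. Whether RNA from other cells has a part in the cluster 3 value was not tested.

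By single cells, 364 of 1569 control HSC/MPP-like cells had at least 5 UMIs of the 39 genes in 2000, or 23.2% (21.1 to 25.4). In the Mll3-labelled library 287 of 1094 did, or 26.2% (23.6 to 28.9), and in the Mll4-labelled library 195 of 562, or 34.7% (30.8 to 38.8). Without doublet removal, which also changed the clustering, these shares were 15.2%, 21.2% and 22.3%. Without thinning the shares were 64.4%, 68.9% and 55.3%, the last with the shallowest cells. When the cell cycle genes were kept in the clustering, the shares were 27.1%, 30.2% and 62.1% and the Mll4-labelled median was 0.93, and with another seed of the clustering that median was 0.80, so its size depends on which cells the class takes in. The class was also split by the count of the surface antibody CD48, which stem cells at rest largely lack. Cells at or below the CD48 threshold of 315 counts were at 1433, 2199.7 and 2619.6 CPM in the order control, Mll3-labelled and Mll4-labelled, and those above it at 2569, 2899 and 3493 CPM. The CD48-low side was lower in each library. Its cells also held fewer UMIs, with medians of 10865 against 15942, 11198 against 16390 and 4360 against 6252.5 in the same order. The threshold took 19.3%, 32.7% and 30.5% of the class in that order, and 92.1%, 82.7% and 92.5% of the CD48-low cells were of cluster 3, so that side holds different mixtures of cells. Cells past 5 UMIs had a median CD48 count of 1061 against 689 in the rest of control, 789 against 466 in the Mll3-labelled and 1216 against 720 in the Mll4-labelled library. Their total antibody counts were higher too (1620.5 against 1179, 1483 against 1129 and 1815 against 1277), and CD48 was 65.5% against 60.3%, 53.8% against 44.6% and 67.6% against 57.0% of them. Sca-1 went the other way, with 21.5 against 30, 30 against 49, and 15 against 20.

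In the other 6 classes the Mll3-labelled library differed from control by medians of at most 0.17 either way. They were 0.13 in granulocyte progenitor-like, 0.16 in monocyte and macrophage progenitor-like, 0.04 in erythroid progenitor-like, 0.10 in megakaryocyte-like, -0.15 in neutrophil-like and -0.17 in basophil and mast cell-like cells. None of the 39 was past the fold in the first 5, where 1.27%, 2%, 0.727%, 2.17% and 1.95% of all genes were higher and 3.67%, 3.68%, 2.58%, 4.08% and 2.3% lower. In basophil and mast cell-like cells 2 were higher and 3 lower (3.08% and 9.62% of all genes). In neutrophil-like cells 38 of 39 were lower by a small amount. Hmmr was lowest there, at 209, 139.6 and 163 CPM, with a log2 ratio of -0.58, then Nek2 at 25.7, 20.2 and 39.7 CPM and Ndc80 at 118, 94.5 and 127 CPM. Ckap2l (81.9, 83.8 and 84.6 CPM), Tpx2 (187, 187 and 169 CPM) and Kif2c (50.6, 50.4 and 63.5 CPM) were highest, with ratios of 0.03, -0.003 and -0.007.

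Hmmr was among the 4 lowest of the 39 Mll3-labelled ratios in 6 of 8 classes. It was below the class median in all 8, with ratios from -0.81 to 0.11. In the Mll4-labelled library, compared with the same control, it was also below the class median in all 8. It was at 142, 126 and 129 CPM in erythroid progenitor-like cells, 111, 93.7 and 98.9 CPM in megakaryocyte-like, 56.2, 51.4 and 60.3 CPM in monocyte and macrophage progenitor-like and 76.9, 43.5 and 45.96 CPM in basophil and mast cell-like cells. Of the Mll3-labelled ratios, that of Ect2 was below the class median in 8 of 8 as well. Ect2 was at 29.7, 25.6 and 40.7 CPM in erythroid progenitor-like and 12.7, 11.9 and 11.9 CPM in megakaryocyte-like cells. It was at 26.7, 23.7 and 33.6 CPM in monocyte and macrophage progenitor-like and 23.96, 20.7 and 25.9 CPM in granulocyte progenitor-like cells. At the high end, Nusap1 was at 44.2, 63.3 and 74.9 CPM in granulocyte progenitor-like and 64.6, 80.2 and 93.5 CPM in erythroid progenitor-like cells. These classes come from the same libraries, so their values are not independent of each other.

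The remaining extremes of the Mll3-labelled ratios were as follows, as CPM in control, Mll3-labelled and Mll4-labelled cells. In granulocyte progenitor-like cells Ccna2 (36.3, 49.4 and 76.2) and Tacc3 (38.5, 48.4 and 92.6) were high, and Ttk (13.8, 11.9 and 19.1) and Ccnb1 (41.1, 38.4 and 49.00) low. Tacc3 (38.1, 57.4 and 68.6), Cenpe (63.2, 93.1 and 75.1) and Cdc20 (53.3, 73.3 and 91.9) were high in monocyte and macrophage progenitor-like cells, and Bub1 (33.01, 30.6 and 26.5) low. Erythroid progenitor-like cells had Cenpf (140.0, 161 and 122) and Dlgap5 (43.5, 49.6 and 57.4), a spindle microtubule protein, high and Bub1 (48.5, 45.97 and 48.3) low. In megakaryocyte-like cells Tacc3 (49.97, 59.9 and 88.7), Cenpf (184, 215 and 171) and Plk1 (41.9, 48.8 and 54.6) were high and Kif2c (26.1, 23.6 and 39.2) low. In basophil and mast cell-like cells Nuf2 (15.5, 24.5 and 16.3), Bub1 (16.7, 25.6 and 2.97) and Ccnb2 (68.8, 94.8 and 34.1) were high and Ttk (14.9, 8.92 and 16.3) and Dlgap5 (35.96, 23.4 and 31.1) low, on 8 to 111 counts in the 2 libraries.

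The Mll4-labelled medians of the other classes were 0.30 in granulocyte progenitor-like, 0.14 in neutrophil-like, 0.13 in monocyte and macrophage progenitor-like, 0.23 in erythroid progenitor-like, 0.23 in megakaryocyte-like and -0.43 in basophil and mast cell-like cells. In the last class the summed level by hashtag was 2827 and 2639.7 CPM for control and 2549.5 and 1642 CPM for Mll4-labelled cells. With trimmed-mean scaling the erythroid and monocyte values turned to -0.03 and -0.10. With the cell cycle genes kept in the clustering, the basophil and mast cell-like value turned to 0.25 and the megakaryocyte-like one to -0.21, and the granulocyte progenitor-like one was 0.82. The counts past the fold higher were 11 (21.7% of all genes), 4 (11.8%), 7 (24.3%), 5 (17.5%), 6 (18%) and 2 (25.8%) in that order. Past the fold lower were 0, 1, 1, 0, 0 and 13, where 15.3%, 9.5%, 7.6%, 4.73%, 9.7% and 14.1% of all genes were. Most Mll4-labelled neutrophil-like cells lay in clusters 13 (1640.0 CPM) and 15 (9497 CPM) and most control ones in clusters 7 (8779 CPM) and 8 (1917 CPM), so the class value joins different mixtures. The erythroid progenitor-like clusters went different ways. Control and Mll4-labelled cells were at 2688 and 2132 CPM in cluster 2, 4176 and 4132 CPM in cluster 6 and 4483 and 5137 CPM in cluster 9. Of the erythroid progenitor-like cells, 61.4% in control and 60.2% in the Mll4-labelled library were past 5 UMIs.

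The same few members lay at the ends of the Mll4-labelled ratios in most of the 8 classes. Tacc3 was among the 4 highest of 39 in 8 of 8, with log2 ratios from 0.59 to 1.24. Cdca3 was among the 4 lowest in 8 of 8, from -1.28 to 0.08, Birc5 in 7, from -1.03 to -0.05, and Cdca8 in 7, from -1.15 to 0.11. Kif20a and Aurkb were among the 4 highest in 4 classes each and above the class median in all 8. Cenpa, Bub1b, Cdk1, Cenpf and Hmmr were below the class median in all 8. Birc5 and Cdca8 are partners of Aurkb in the passenger complex, and their ratios lay at opposite ends of the list.

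**Figure D5:**
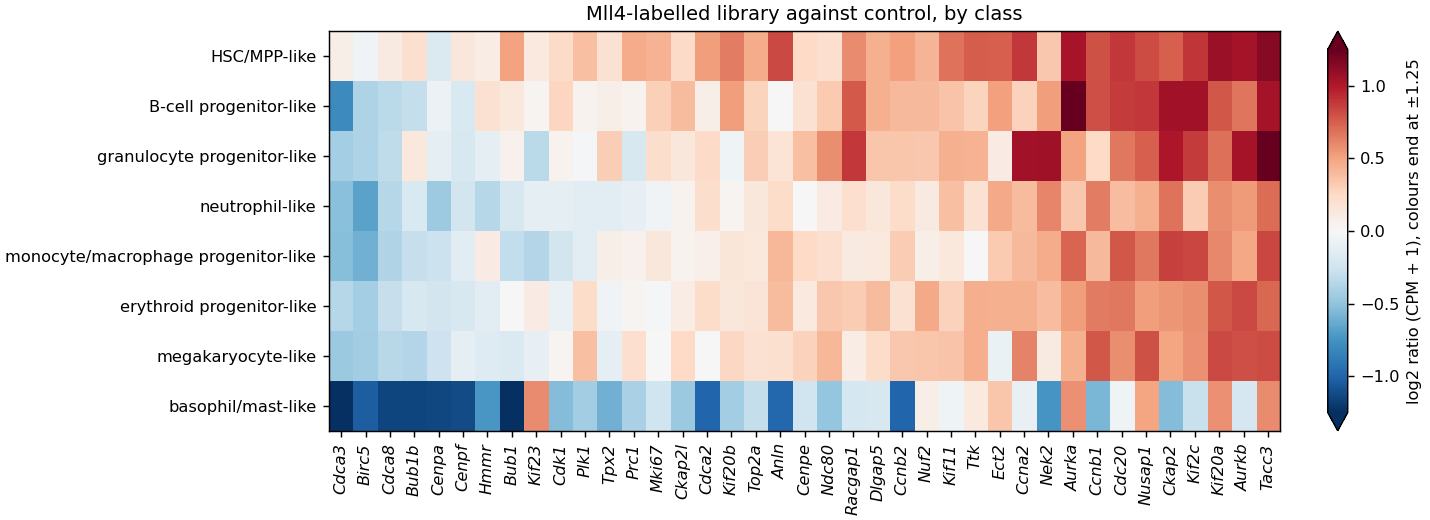
Log2 ratio of the Mll4-labelled library to control for the 39 genes (columns, ordered by their median over classes) in 8 classes (rows), with blue for lower and red for higher. Cdca3, Birc5 and Cdca8, at the left, lie below the row's median in all 8 rows, and Tacc3, at the right, is among the 4 highest of each, from 0.59 to 1.24.

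Values for these genes, in the order control, Mll3-labelled and Mll4-labelled, were as follows. Tacc3 was at 109.7, 99.3 and 178 CPM in neutrophil-like, 60.2, 65.98 and 99.8 CPM in erythroid progenitor-like and 29.1, 37.9 and 44.5 CPM in basophil and mast cell-like cells. Its Mll4-labelled level was highest in each. Birc5 was at 460.1, 420.4 and 289 CPM in neutrophil-like, 271, 268 and 202 CPM in erythroid progenitor-like, 204, 213 and 151 CPM in megakaryocyte-like, 181, 204 and 119 CPM in monocyte and macrophage progenitor-like and 167, 188 and 128 CPM in granulocyte progenitor-like cells. Its Mll4-labelled level was lowest in each. Cdca3 was at 216, 195 and 150.2 CPM, 122, 126 and 94.9 CPM, 90.4, 96.5 and 65.4 CPM, 81.7, 89.1 and 56.04 CPM and 78.7, 86.6 and 58.5 CPM in the same classes. Aurkb was at 74.9, 76.2 and 133 CPM in erythroid progenitor-like and 69.96, 78.9 and 123 CPM in megakaryocyte-like cells, and Kif20a at 32.9, 32.7 and 56.9 CPM and 20.2, 21.9 and 36.4 CPM. Cdca8 was at 205, 216 and 167 CPM in erythroid progenitor-like and 145, 164 and 111 CPM in monocyte and macrophage progenitor-like cells, lowest in the Mll4-labelled library both times.

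The other extremes were Ccnb1 (93.01, 85.8 and 145 CPM), Ckap2 (51.1, 45.2 and 82.1 CPM) and Cenpa (309, 270.2 and 225 CPM) in neutrophil-like cells, the first 2 high and the last low in the Mll4-labelled library. Ckap2 (21.1, 24.8 and 39.01 CPM) and Kif2c (16.3, 18.2 and 30.04 CPM) were high in monocyte and macrophage progenitor-like cells. Nek2 (7.95, 7.496 and 17.7 CPM, on 69 and 13 counts) was high and Kif23 (31.2, 32.4 and 24.5 CPM) low in granulocyte progenitor-like cells. Bub1b (64.9, 69.1 and 50.04 CPM) was low in megakaryocyte-like cells. In basophil and mast cell-like cells, of which the Mll4-labelled library had 222 with a median of 2604 UMIs and control 138 with 10769, Bub1 had 27 counts in control and 2 in the Mll4-labelled library, a log2 ratio without a pseudocount of -2.50 with a counting interval of -5.61 to -0.50. Cdca3 (70.1, 62.4 and 28.2 CPM) and Bub1b (53.9, 45.7 and 23.7 CPM) were the next lowest there. Kif23 (44.02, 45.7 and 66.7 CPM) and Kif20a (13.6, 13.4 and 20.8 CPM) were high.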

How the data were processed

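Single-cell RNA and antibody counts of 4 libraries were used. The deposited matrices hold UMI counts per gene and barcode, per the file headers, made by the authors with Cell Ranger 6.1.2 on mm10, per the submitters' processing notes. Barcodes with at least 500 genes, 1000 UMIs and at most 10% mitochondrial UMIs were kept, and the highest Scrublet scores were removed as doublets at 0.8% per 1000 barcodes (expected rate 0.06). Cells of all libraries were clustered together (scanpy 1.11.5, Python 3.11.15, numpy 2.4.6, scikit-learn 1.9.0, igraph 0.11.9: 2000 variable genes without the cell cycle genes, 30 components, 15 neighbours, Leiden resolution 1) and named from 14 lists of markers. UMIs were summed per class of at least 50 cells and scaled to CPM, with exact intervals (scipy 1.17.1) of 95%. Genes with at least 20 counts in either library entered ratios, with a pseudocount of 1 CPM. Cells were thinned to 2000 UMIs for shares. The members and lists were chosen with earlier results of these data known. Genes named are the 3 highest and 3 lowest ratios per comparison and Mki67, Top2a, Cdk1, Ccnb1, Cdc20, Plk1, Aurka, Cenpf and Birc5 in B-cell progenitor-like and HSC/MPP-like cells, and of other lists the 2 highest and lowest. Others named in clusters or for their role were chosen after their values were seen. The steps were tested on simulated data. Alternatives were another resolution, seed and scaling, cell cycle genes kept, no doublet removal, cells weighted equally, a marker gate, other UMI minimums, a pseudocount of 0.1 and a minimum of 100 counts.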

Additional observations from a re-analysis of the deposited data

Results flagged for a closer look

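The median log2 ratio of the 39 genes to control had the opposite sign in 3 comparisons to that in most classes of the same library. In the Mll3-labelled library it was -0.15 in neutrophil-like and -0.17 in basophil and mast cell-like cells, while it was above 0 in the other 6 classes. In the Mll4-labelled library it was -0.43 in basophil and mast cell-like cells and above 0 in the other 7, of which the erythroid and monocyte values were -0.03 and -0.10 with trimmed-mean scaling. By hashtag, the summed level of the 39 genes in Mll4-labelled basophil and mast cell-like cells was 2549.5 and 1642 CPM, against 2827 and 2639.7 CPM in control. In Mll3-labelled neutrophil-like cells the summed level was below control in cluster 7 (8125 against 8779 CPM) and above it in cluster 8 (2745 against 1917 CPM). With 1 library per group, these differences between classes and clusters were not tested.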

How the results depend on the processing

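No paired analysis was possible because each group has 1 library. Depth limits low genes in the Mll4-labelled library most. Over 189 medians, 154 kept direction and size, 32 moved and 3 reversed. With trimmed-mean scaling the Mll4-labelled medians were 0.22 in HSC/MPP-like, 0.045 in B-cell progenitor-like, -0.10 in monocyte, -0.032 in erythroid and -0.70 in basophil and mast cell-like cells, and Mll3-labelled ones 0.19 in granulocyte progenitor-like and 0.15 in megakaryocyte-like cells. With cell cycle genes kept in the clustering, Mll4-labelled medians were 0.93 in HSC/MPP-like, 0.82 in granulocyte progenitor-like, 6.49e-05 in monocyte, -0.21 in megakaryocyte-like and 0.25 in basophil and mast cell-like cells, and Mll3-labelled ones 0.16 in megakaryocyte-like and -0.37 in basophil and mast cell-like cells. With seed 1 they were 0.20 (Mll3-labelled) and 0.80 (Mll4-labelled) in HSC/MPP-like and 0.19 (Mll3-labelled) in granulocyte progenitor-like cells. At resolution 2 they were 0.27 and 0.44 in granulocyte progenitor-like and 0.51 (Mll4-labelled) in monocyte cells. Without doublet removal they were 0.32 in HSC/MPP-like and 0.16 in megakaryocyte-like (Mll3-labelled) and -0.21 in basophil and mast cell-like cells (Mll4-labelled). With each cell weighted equally they were 0.21 in HSC/MPP-like, 0.37 in B-cell progenitor-like and 0.18 in megakaryocyte-like cells (Mll3-labelled), and 0.60 (Mll4-labelled) and -0.29 (Mll3/4-labelled) in B-cell progenitor-like cells. With a marker gate the B-cell progenitor-like medians were 0.74 (Mll4-labelled) and -1.45 (Mll3/4-labelled against Mll4-labelled). By 1 hashtag, an alternative chosen after seeing the data, they were -0.086 (Mll3-labelled, first), 0.11 (Mll4-labelled, second), -0.85 and -0.45 (Mll3/4-labelled, first and second) and -0.70 (Mll3/4-labelled against Mll4-labelled, second). Of shares of cells, 49 values kept their size and 35 moved. At a minimum of 3 UMIs they were 44.4%, 64.3% and 33.0% in B-cell progenitor-like (control, Mll3-labelled, Mll3/4-labelled), 33.4%, 37.4% and 48.04% in HSC/MPP-like, 73.8%, 79.1% and 69.4% in erythroid and 89.3%, 90.6% and 79.6% in neutrophil-like cells (control, Mll3-labelled, Mll4-labelled), and 8% in T, NK and innate lymphoid-like cells. At 10 UMIs they were 32.7%, 39.9%, 73.0% and 22.2% in B-cell progenitor-like, 13.1%, 15.2% and 18.5% in HSC/MPP-like, 30.4%, 32.7% and 31.3% in erythroid and 74.3%, 71.6% and 69.1% in neutrophil-like cells. Without doublet removal they were 15.2%, 21.2% and 22.3% in HSC/MPP-like, 67.0% (control) and 69.4% (Mll4-labelled) in erythroid and 86.5% (control) in neutrophil-like cells. With cell cycle genes kept they were 27.1%, 30.2% and 62.1% in HSC/MPP-like cells. The causes were not tested.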

Other observations

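The other cell cycle lists were also compared among libraries. In Mll4-labelled B-cell progenitor-like cells 19 of 30 S phase genes were past the fold higher than control, with a median of 0.76, where 22.6% of all genes were and trimmed-mean scaling shifts the library by 0.25, led by Ccne2, a G1/S cyclin, at 1.52 and Mcm6, of the replicative helicase, at 1.495. Rfc2, of the clamp loader, at -0.39 and Gins2 at -0.38 were lowest. Of the 67 further mitosis genes there 24 were higher and 3 lower, with a median of 0.36. Pttg1 at 2.27 and Hjurp, the chaperone of Cenpa, at 1.10 were highest and the phosphatase Cdc25c at -0.96 and Cks1b at -0.79 lowest. In the Mll3-labelled library the medians were 0.00 for further mitosis and 0.07 for S phase genes, with Pttg1 at 2.39. The rise of Pttg1 was not particular to these cells. Its Mll3- and Mll4-labelled log2 ratios were 4.30 and 4.19 in neutrophil-like and 1.54 and 1.37 in erythroid progenitor-like cells, and above 0 in every class compared.

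In HSC/MPP-like cells of the Mll4-labelled library 13 of 30 S phase genes and 29 of 67 further mitosis genes were past the fold higher, with medians of 0.52 and 0.47, where 17.6% of all genes were and trimmed-mean scaling shifts the library by 0.25. In the order control, Mll3-labelled and Mll4-labelled, Mcm6 was at 217, 195 and 507 CPM, Ccne2 at 15.3, 16.8 and 42.5 CPM and Pttg1 at 22.0, 62.3 and 88.3 CPM. These rises were not particular to HSC/MPP-like cells. The Mll4-labelled log2 ratio of Mcm6 was 1.05 in neutrophil-like, 1.16 in erythroid progenitor-like, 1.27 in megakaryocyte-like and 0.52 in basophil and mast cell-like cells. That of Ccne2 was 1.13 in neutrophil-like, 1.08 in erythroid progenitor-like and 1.01 in megakaryocyte-like cells. In the low clusters of the Mll3/4-labelled B-cell progenitor-like cells 23 of 30 S phase genes were past the fold higher than control and 1 lower, with a median of 1.06. Of the 39 genes 5 were higher and 13 lower there, with a median of -0.20. The low clusters remained after the high ones were set apart by the level of the 39 genes, and control and Mll3/4-labelled cells lay in different ones. The medians are therefore a description, and no difference between the lists is read from them. Of all genes in those clusters 22.9% were higher and 24.1% lower. Trimmed-mean scaling shifts that comparison by -0.26.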
